A study of Mus musculus with 12 samples.

Results

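The RNA exosome is the main 3' to 5' RNA-degrading machine of eukaryotic cells, and the transcripts of 10 of its subunit genes (Exosc1, Exosc2, Exosc3, Exosc4, Exosc5, Exosc7, Exosc8, Exosc9, Exosc10 and Dis3) are described here in mouse zygotes. The genes were chosen by name, as the 3' to 5' decay route beside the LSM1 route, and all 10 were found among 25092 genes and repeats. The study measured total RNA in zygotes after knockdown of Lsm1, and the RNA recovered with FLAG-tagged LSM1 by RNA immunoprecipitation and sequencing (RIP-seq). There were 12 libraries in 6 groups of 2. In the RNA-seq, Lsm1_KD zygotes received siRNA against Lsm1 and Ctrl zygotes a scramble siRNA. In the RIP-seq, FLAG IP and FLAG Input libraries came from zygotes given Lsm1_3XFlag mRNA, and Ctrl IP and Ctrl Input libraries from zygotes labelled as given Lsm1 mRNA without a tag. Per the labels, all zygotes came from B6D2F1 females aged 8 to 10 weeks and were collected 18 to 20 h after hCG. The females were superovulated with 7 IU of pregnant mare serum gonadotropin and 5 IU of hCG. The study's methods name the same hybrid as BDF1, but at a younger age and with other hormone doses. Each RNA-seq library pools a few embryos. The labels place the siRNA injection at the zygote stage, whereas the study's scheme shows it in oocytes.

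In the exosome, ring subunits of the RNase PH fold (Exosc4, Exosc5, Exosc6, Exosc7, Exosc8 and Exosc9) form a barrel that in mammals has lost its own catalytic activity. Exosc1, Exosc2 and Exosc3 sit on the ring as an RNA-binding cap, and RNA is cut by DIS3 at the bottom of the barrel and by EXOSC10 at its top, mainly in the nucleus. The complex trims ribosomal and small nucleolar RNAs and removes nuclear transcripts, and in the cytoplasm it degrades deadenylated mRNA with the help of the Ski complex. The LSM1-7 ring serves the opposite route, in which the mRNA is decapped and degraded from its 5' end. Exosc6 is not among the 10 genes, and its values are given once, for completeness of the ring.

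Lsm1 itself, the target of the siRNA, had 63.6 and 71.0 CPM (read counts scaled to library size with TMM factors, called normalized CPM from here on) in Lsm1_KD and 143 and 147 in Ctrl zygotes. Its log2 fold change was -1.10, with a standard error of 0.22 and an adjusted p of 0.012 by edgeR's quasi-likelihood test with Benjamini-Hochberg adjustment, so that Lsm1 RNA was lowered but not lost. In the RIP-seq, Lsm1 stood at 10838 and 16749 normalized CPM in the FLAG Input but at 18.3 and 18.4 in the Ctrl Input, so the control libraries, whose titles name IgG, held no excess of Lsm1 RNA that an injected mRNA would add. A library held between 4636492 and 13968315 estimated counts in the RNA-seq, and between 9865512 and 31586450 in the RIP-seq. FLAG IP replicate 1 stood apart from the other RIP-seq libraries, with 12.7% of its counts in repeats against at most 2.63% in the other 7 and a TMM factor of 1.87. The summed level of 8 oocyte and zygote markers was 14900 to 15500 TPM (transcript counts scaled by length and depth) in Lsm1_KD and 16400 to 17400 TPM in Ctrl, with Gdf9 lower (log2 fold change -1.08, adjusted p = 0.018) and Npm2 higher (1.19, adjusted p = 0.0058) by edgeR. Of 8 cumulus and granulosa markers, 5 were at 0 in both groups, and the summed level was 10.9 to 11.4 TPM in Lsm1_KD and 10.6 to 16.2 TPM in Ctrl. Of 5 sperm markers, 4 were at 0, so that the summed level was that of Prm2, with 27.0 to 38.4 TPM in Lsm1_KD and 9.56 to 10.8 TPM in Ctrl. Its log2 fold change of 1.97 was not called (adjusted p = 0.084 by edgeR). The part of all these markers in the results below was not tested. In these bulk samples a gain or loss of cells of a type and of RNA per cell cannot be told apart.

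The siRNA is shown because its seed, the 7 bases that a guide strand uses to find partial matches, could also meet the exosome mRNAs. Both strands are written 5' to 3', with the seed of the guide strand and the matching site in the sense strand in capitals.
Lsm1 siRNA, sense strand: gatcaatttgcTAACTTAg
Lsm1 siRNA, guide strand: cTAAGTTAgcaaattgatc
All 19 bases matched a transcript of 1 gene, Lsm1 (NM_026032), where the site spans exons 2 and 3 of 4 in the coding sequence (chr8:25792216-25793685, plus strand, GRCm38.p6). The site TAACTTA was present in 0 of 10 exosome subunit genes, over 17 protein-coding RefSeq transcripts searched, whereas 9.8% of 20558 genes held it in their longest transcript and 7.6% in the 3' UTR. This says only that these letters are not in these transcripts.

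Per length, the exosome subunits of Ctrl zygotes spanned a wide range of levels. Exosc3, a cap subunit, had 317 and 190 TPM and Exosc8, a ring subunit, had 247 and 229 TPM, and these ranges overlapped. Exosc7 (72.8 and 66.7 TPM) and Exosc10 (53.6 and 69.1 TPM) followed and overlapped as well, then Exosc9 (49.2 and 49.6 TPM) and Exosc1 (52.0 and 26.7 TPM), which also overlapped. Lower down stood Exosc2 (20.5 and 20.3 TPM), Exosc4 (8.17 and 16.6 TPM) and Dis3, the processive nuclease (3.69 and 2.41 TPM), each apart from its neighbour. Exosc5 was the lowest, with 1.67 and 0.357 TPM, from 9 reads and 1 read. Of the 9 neighbouring pairs in this order, 3 overlapped in Ctrl and 3 in Lsm1_KD. The mean TPM of the highest subunit was 251 times that of the lowest in Ctrl and 638 times in Lsm1_KD, a ratio that rests on the few reads of Exosc5.

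The Input libraries of the control RIP-seq gave another picture of the same genes. There Exosc10 (44.1 and 54.6 TPM) and Exosc3 (44.7 and 53.9 TPM) were highest and overlapped, Exosc5 (3.99 and 4.54 TPM) was lowest and overlapped Exosc4 (4.19 and 4.59 TPM), and the highest mean was 11.6 times the lowest. On the log2(TPM + 1) scale, the mean RNA-seq level minus the mean Input level was 2.50 for Exosc8, 2.44 for Exosc7 and 2.34 for Exosc3, at percentiles 95.2, 94.8 and 93.9 of 11188 genes tested in both experiments. At the other end, it was -1.39 for Exosc5 and -1.19 for Dis3, at percentiles 8.0 and 10.3. Exosc5 was not tested in the RNA-seq, so it is set against these genes without being one of them. The experiments differ in injected RNA, in library kit and, per the study's methods, in the number of cells or embryos per library. These levels are therefore set side by side without a test. The rank correlation of this difference with transcript length was -0.28 over the 10 subunits, which range from 1031 nt (Exosc5) to 3722 nt (Dis3), and -0.08 over the 11188 genes.

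**Figure D1:**
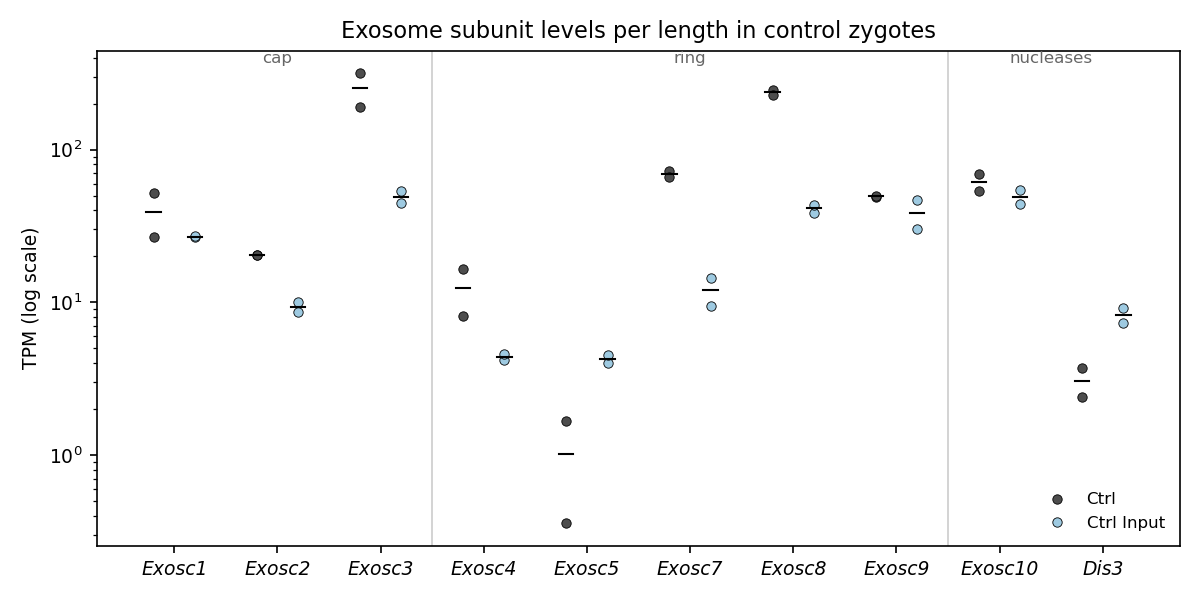
Level of each exosome subunit gene in TPM (log axis) in the 2 Ctrl RNA-seq libraries (dark) and the 2 Ctrl Input libraries of the RIP-seq (light blue); points are libraries and bars are means of 2. Exosc3 and Exosc8 top the RNA-seq libraries, at 190 to 317 TPM, while Dis3 and Exosc5 are higher in the Input libraries.

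The first comparison asked whether the RNAs of the 3' to 5' route differed when the LSM1 route was reduced. No exosome subunit passed the test in Lsm1_KD zygotes. Of the 10 genes, 9 passed the abundance filter, and edgeR's quasi-likelihood test called 0 of them at an adjusted p under 0.05, where 11.0% of 11335 genes and repeats were called. At an unadjusted p under 0.05 there were 3 (Exosc10, Exosc9 and Exosc2), where the share over all features was 27.1%. DESeq2 called 1 (Exosc10), where it called 1751 of the 11335 genes and repeats. Limma on log2(TPM + 1) called 2 (Exosc10 and Exosc9), where it called 1272 of the 11335. The log2 fold changes ran from -0.97 to 0.94 with a median of 0.10, beside a median of 0.01 over all features tested, and 5 lay above 0 and 4 below. The libraries of the groups did not overlap for 5 of the 9 genes, 2 with Lsm1_KD higher and 3 with Lsm1_KD lower, as for 57.9% of all features.

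Among the nucleases, Exosc10 (chr4:148558419-148582401), the nuclear exonuclease without which mouse oocytes mature poorly, had 42.1 and 31.1 normalized CPM in Lsm1_KD and 60.6 and 81.8 in Ctrl zygotes. Both Lsm1_KD libraries lay below both Ctrl libraries. The log2 fold change was -0.97 (standard error 0.28, 95% interval -1.59 to -0.34), and its adjusted p of 0.052 by edgeR's quasi-likelihood test just missed the threshold. This value depended on the setting. It was past the threshold in 7 of 12 alternatives, with adjusted p from 0.0026 to 0.24, and DESeq2 gave 0.017. The lowest value came from a crossed replicate block, with the Ctrl replicate numbers exchanged, which was chosen after seeing the data. With the replicate number as a block, edgeR's adjusted p was 0.12. It was 0.034 without Lsm1_KD replicate 1 and 0.023 without Ctrl replicate 1, but 0.24 without Lsm1_KD replicate 2 and 0.22 without Ctrl replicate 2.

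Dis3 (chr14:99076634-99099780), the other nuclease, had 8.68 and 7.99 normalized CPM in Lsm1_KD and 5.66 and 3.86 in Ctrl zygotes. The Lsm1_KD libraries were both higher, yet the log2 fold change of 0.79 (standard error 0.56, 95% interval -0.44 to 2.03) had an adjusted p of 0.39 by edgeR. Its lowest value rests on 28 reads in Ctrl replicate 2. In all 325 of its 3722 exonic bases overlap the gene Pibf1 on the opposite strand, and the strand setting of the quantification is not given in the sources used here. Pibf1 had a log2 fold change of -0.28 (adjusted p = 0.55 by edgeR).

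Of the ring subunits among the 10 genes, Exosc9 (chr3:36552606-36565727) had the log2 fold change farthest from 0. It stood at 15.8 and 17.2 normalized CPM in Lsm1_KD and 30.4 and 32.2 in Ctrl zygotes. Replicates were thus close to each other and the groups apart. The log2 fold change was -0.92 (standard error 0.31, 95% interval -1.62 to -0.22) with an adjusted p of 0.087 by edgeR, which passed in 2 of 12 alternatives (0.028 to 0.23). These 2 were limma and the crossed replicate block, the latter chosen after seeing the data. Exosc9 shares 378 of its 1617 exonic bases with Ccna2, encoding cyclin A2, on the opposite strand. Only NM_019393 is listed for Exosc9, yet its estimated reads were not whole, at 452.1 and 234.2 in the Ctrl libraries. Ccna2 had 6652.9 and 2944.8 there, and the fractions of both genes add to whole reads, as where reads are shared out between them. The part of this in the value of Exosc9 was not tested. Ccna2 had a log2 fold change of -0.19 (adjusted p = 0.55 by edgeR).

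Exosc7 was lower in both Lsm1_KD libraries, at 22.3 and 18.7 normalized CPM against 26.7 and 25.9, with a log2 fold change of -0.36 and an adjusted p of 0.51 by edgeR. Exosc8, the most abundant ring subunit, had 103 and 114 normalized CPM in Lsm1_KD and 116 and 113 in Ctrl zygotes. Its groups overlapped, and the 95% interval of its log2 fold change of -0.08 ran from -0.54 to 0.39, the narrowest of the 9. Exosc4 had 10.7 and 16.7 normalized CPM in Lsm1_KD and 5.66 and 12.1 in Ctrl, overlapping groups with a log2 fold change of 0.65 (adjusted p = 0.45 by edgeR) that was 0.18 without Ctrl replicate 1 and 1.26 without Ctrl replicate 2. Exosc5 did not pass the abundance filter, with 1 read in each Lsm1_KD library and 9 reads and 1 read in the Ctrl libraries, so that no fold is given. Exosc6, outside the 10 genes, had 8 and 25 reads in Lsm1_KD and 19 and 3 in Ctrl libraries, with a log2 fold change of 1.22 and a standard error of 1.10 (adjusted p = 0.52 by edgeR).

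In the cap, Exosc2 (chr2:31670715-31681352) had 22.7 and 29.2 normalized CPM in Lsm1_KD and 13.3 and 13.9 in Ctrl zygotes. Both Lsm1_KD libraries lay above both Ctrl libraries. The log2 fold change was 0.94 (standard error 0.35, 95% interval 0.17 to 1.71), with an adjusted p of 0.11 by edgeR. It was past the threshold in 1 of 12 alternatives, the crossed replicate block chosen after seeing the data. Exosc1 had 35.6 and 30.2 normalized CPM in Lsm1_KD and 32.2 and 17.4 in Ctrl zygotes, and Exosc3 had 103 and 100 in Lsm1_KD and 116 and 73.4 in Ctrl. For both genes the Ctrl replicates differed more from each other than the Lsm1_KD replicates did, and the groups overlapped. The log2 fold changes were 0.40 for Exosc1 and 0.10 for Exosc3, the latter with a 95% interval from -0.47 to 0.67. The value of Exosc1 was 0.91 without Ctrl replicate 1 and 0.01 without Ctrl replicate 2, and that of Exosc3 was 0.46 and -0.21.

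**Figure D2:**
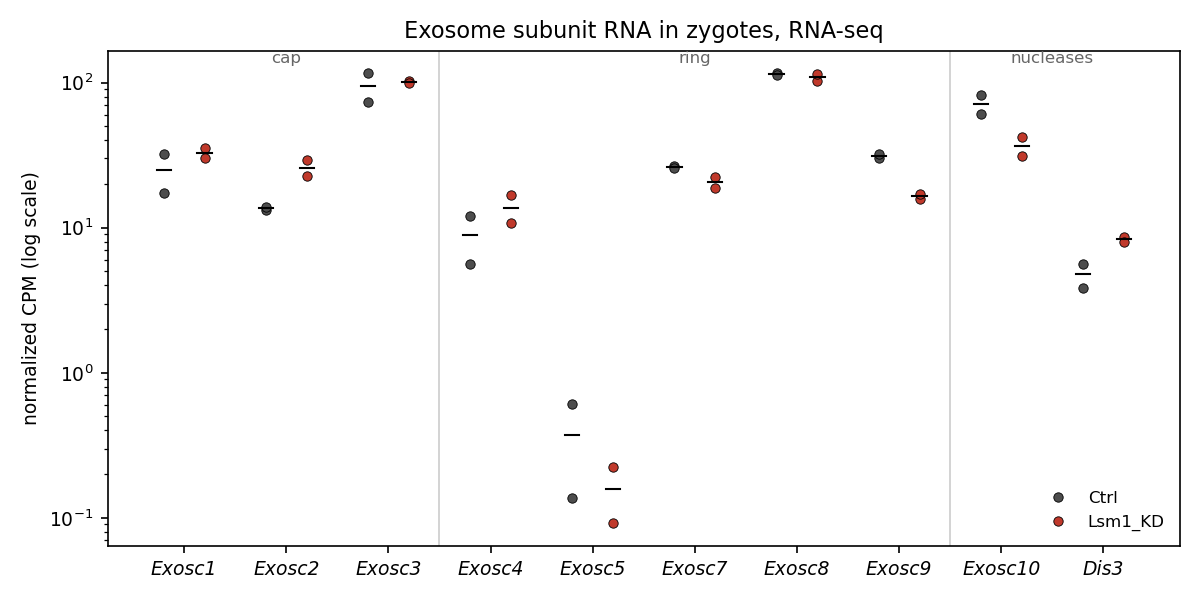
Normalized CPM (log axis) of each exosome subunit gene in the 2 Ctrl (dark) and 2 Lsm1_KD (red) RNA-seq libraries, ordered by cap, ring and nucleases; points are libraries and bars are means of 2. Exosc9 and Exosc10 lie lower and Exosc2 and Dis3 higher in both Lsm1_KD libraries, and Exosc5 is below 1 in all 4.

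The isoform that carried a subunit was followed for Exosc1, Exosc10 and Exosc8, for which RefSeq lists several. Exosc5 also has several, NM_138586 and NR_104358, and their shares are not given. Exosc1 has 5 transcripts, and NM_025644 held 84.0% and 89.1% of its reads in Lsm1_KD and 96.7% and 95.2% in Ctrl libraries. Exosc10 has 4, and NM_016699 held 100% in both Lsm1_KD and 98.5% and 98.8% in Ctrl libraries. In the RIP-seq the Exosc1 transcript held 56.4% and 77.8% in the FLAG IP and 81.5% and 87.0% in the FLAG Input. That of Exosc10 held 86.8% and 71.9% in the FLAG IP and 90.4% and 94.5% in the FLAG Input. Exosc8 has 2 transcripts, and NM_027148 held 94.2% and 99.1% in the FLAG IP and 97.7% and 98.2% in the FLAG Input, with overlap. In the control, IP and Input overlapped for Exosc1 (94.9% and 86.4% against 88.7% and 89.1%). They also overlapped for Exosc10 (88.7% and 93.1% against 95.1% and 92.6%). These shares were not tested.

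The helpers of the exosome were read against the same share of 11.0% called over all features. Of 13 nuclear cofactors, all tested, 1 was higher and 1 lower in Lsm1_KD zygotes by edgeR, and the list's median was 0.04 on the log2 scale. Pabpn1, the nuclear poly(A)-binding protein, rose (1.12, adjusted p = 0.007 by edgeR), and Rbm7, the RNA-binding subunit of the nuclear exosome targeting complex, fell (-0.96, adjusted p = 0.027 by edgeR). Of the 4 Ski complex and bridge genes edgeR called 0, with a median of 0.12, and the most abundant were Ttc37, the scaffold of the Ski complex (-0.30), and Hbs1l, which encodes the bridge between Ski and the exosome (0.54, adjusted p = 0.17 by edgeR). Of 5 other 3' to 5' exoribonucleases edgeR called 0, with a median of -0.17, and the most abundant were Rexo2 (0.08) and Dis3l, the cytoplasmic relative of Dis3 (-0.59, adjusted p = 0.20 by edgeR).

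The LSM1 route held called genes in both directions. Of its 15 genes 13 were tested, and edgeR called 4 higher and 1 lower, beside 11.0% of all features called in either direction, and the median over the list was 0.37 on the log2 scale. The lower one was Lsm1, the siRNA target. The 4 higher ones were subunits of the LSM1 ring, namely Lsm5 (2.93, adjusted p = 0.0078), Lsm2 (1.60, adjusted p = 0.041), Lsm7 (0.97, adjusted p = 0.048) and Lsm3 (1.52, adjusted p = 0.049), all by edgeR. Of the other ring subunits, Lsm6 was not called (0.59, adjusted p = 0.46 by edgeR) and Lsm4 was not tested. In normalized CPM, Lsm5 had 14.7 and 36.0 in Lsm1_KD against 3.17 and 3.58 in Ctrl, and Lsm2 had 45.8 and 51.2 against 23.5 and 8.13. Lsm7 had 83.2 and 57.1 in Lsm1_KD against 35.2 and 36.1 in Ctrl, and Lsm3 had 21.6 and 27.1 against 11.2 and 5.65. Some of these replicates were thus far apart. The difference between this list and the exosome subunits was not tested.

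**Figure D3:**
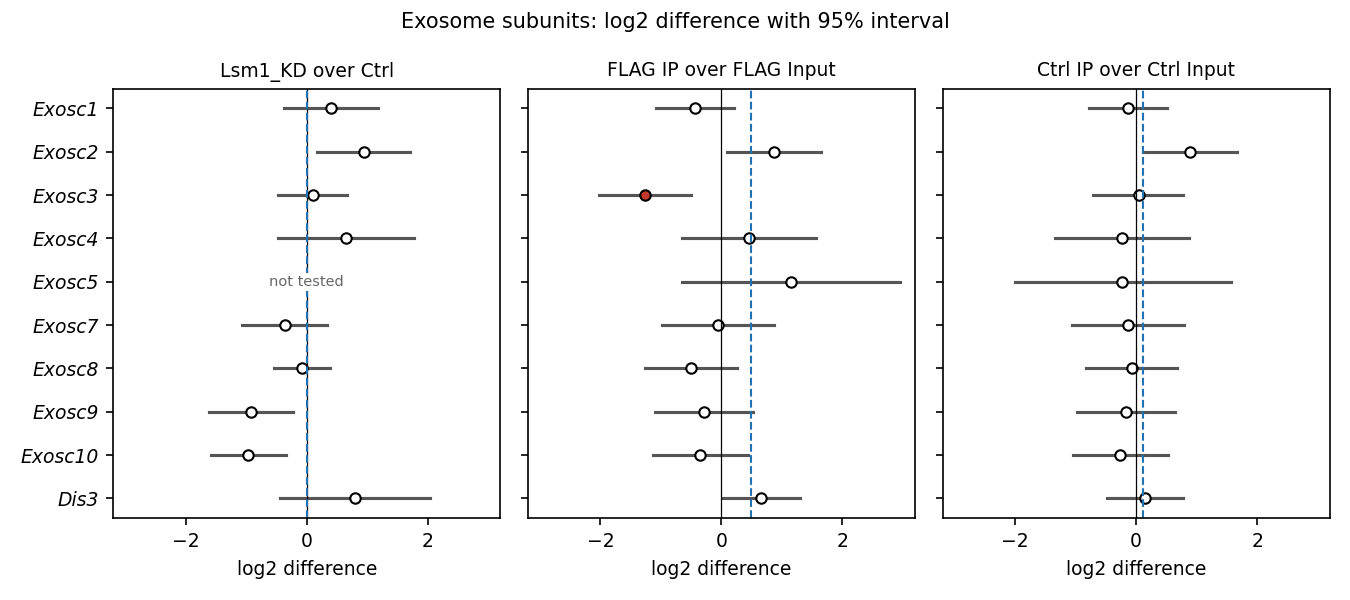
Log2 difference of each exosome subunit gene with its 95% interval in Lsm1_KD over Ctrl, FLAG IP over FLAG Input and Ctrl IP over Ctrl Input; a filled red point marks an adjusted p under 0.05 by edgeR, the dashed blue line is the median of all features tested. Only Exosc3 in FLAG IP over FLAG Input is filled, at -1.26, and Exosc5 was not tested in Lsm1_KD.

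The second comparison asked whether the exosome RNAs were recovered with LSM1. In the FLAG IP over the FLAG Input, edgeR called 0 of the 10 subunits higher, where 21.0% of 18973 features were higher, and 1 lower, where 5.48% were lower. At an unadjusted p under 0.05 there were 3 (Exosc3, Exosc2 and Dis3), where the share of all features was 46.5%. DESeq2 and limma each called 1, where they called 7604 and 2820 of the 18973 features. The median log2 ratio of the subunits was -0.18 and that of all features 0.49. With library totals in place of TMM factors these medians were 0.35 and 1.17. The median of the subunits minus that of all features was -0.67 with TMM factors and -0.82 with library totals. The first was -0.19 without FLAG IP replicate 1 and -1.42 without FLAG IP replicate 2, so it rests on single libraries. It also depends on the features it is set against. Set against the 11188 genes tested in both experiments, Exosc3 was at percentile 9.1 and the other 9 subunits were at percentiles from 50.5 to 86.7. The highest, Exosc5, is not itself one of the 11188 genes, and the next was Exosc2 at percentile 83.7. The groups did not overlap for 7 of the 10 genes, 3 with the IP higher and 4 with it lower, as for 72.3% of all features.

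The lower subunit was Exosc3 (chr4:45316613-45320616), which had 9.45 and 18.7 normalized CPM in the FLAG IP and 34.2 and 33.0 in the FLAG Input. The control libraries gave 38.1 and 34.5 in the Ctrl IP and 35.4 and 35.4 in the Ctrl Input. Of the 8 libraries, only both FLAG IP libraries were low. The log2 ratio of FLAG IP over FLAG Input was -1.26 (standard error 0.35, 95% interval -2.02 to -0.50, adjusted p = 0.026 by edgeR), at percentile 5.9 of all features tested. In the control it was 0.04 (adjusted p = 0.98 by edgeR). The difference between both ratios was -1.30 (standard error 0.49, 95% interval -2.36 to -0.24), with an unadjusted p of 0.021 but an adjusted p of 0.79 by edgeR, so that a difference between the FLAG and the control pull-down was not shown.

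The call for Exosc3 was kept in 12 of 15 alternatives. It was lost without FLAG Input replicate 1 (adjusted p = 0.14 by edgeR), without FLAG Input replicate 2 (0.10) and with library totals (log2 ratio -0.83, adjusted p = 0.051 by edgeR). Without FLAG IP replicate 1, the library that stands apart, the log2 ratio was -0.88 (adjusted p = 0.025 by edgeR), and without FLAG IP replicate 2 it was -1.83. Low values in the FLAG IP were not particular to Exosc3: the 8 oocyte and zygote markers had log2 ratios between -1.57 and -1.07 (median -1.42), of which edgeR called 2 lower, Zp2 and Zp3. Over the 11188 genes tested in both experiments the log2 ratio had a rank correlation of -0.64 with the mean Input level, and of -0.71 over the 10 subunits. Both measures contain the Input values, so this is a description only.

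**Figure D4:**
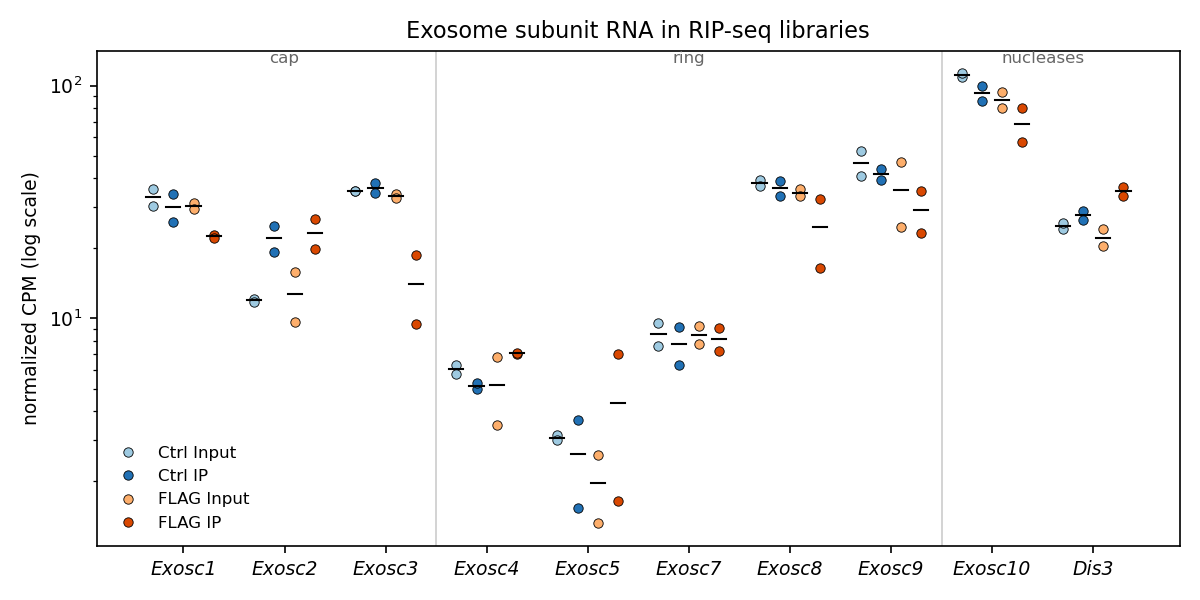
Normalized CPM (log axis) of each exosome subunit gene in the 8 RIP-seq libraries, in the order Ctrl Input, Ctrl IP, FLAG Input and FLAG IP; points are libraries and bars are means of 2. Exosc3 is low in both FLAG IP libraries (9.45 and 18.7) and Exosc2 is higher in both kinds of IP than in their Inputs. The FLAG IP replicates of Exosc3, Exosc5 and Exosc8 are far apart.

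Exosc2, the cap subunit with higher values in both Lsm1_KD libraries, also had higher values in both kinds of pull-down. It had 26.7 and 19.9 normalized CPM in the FLAG IP and 9.65 and 15.9 in the FLAG Input, and 25.0 and 19.3 in the Ctrl IP and 12.1 and 11.8 in the Ctrl Input. IP and Input did not overlap in either pair. The log2 ratios were 0.87 (adjusted p = 0.081) in the FLAG and 0.89 (adjusted p = 0.23) in the control libraries by edgeR, and the difference between them was -0.02 with a 95% interval from -1.11 to 1.07.

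Exosc1, the remaining cap subunit, had 22.8 and 22.2 normalized CPM in the FLAG IP and 31.3 and 29.5 in the FLAG Input, without overlap, but 34.4 and 26.0 in the Ctrl IP and 35.8 and 30.4 in the Ctrl Input, with overlap. Its log2 ratios were -0.43 and -0.14, and the first turned to 0.18 with library totals. The adjusted p was 0.25 in the FLAG libraries by edgeR.

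Of the nucleases, Dis3 had 36.8 and 33.5 normalized CPM in the FLAG IP and 24.1 and 20.4 in the FLAG Input, a log2 ratio of 0.66 (95% interval 0.03 to 1.29, adjusted p = 0.096 by edgeR). In the control it had 28.9 and 26.5 in the IP and 24.3 and 25.8 in the Input, a log2 ratio of 0.15. The difference between the ratios was 0.51 (95% interval -0.38 to 1.40, adjusted p = 0.79 by edgeR). Exosc10, the most abundant subunit in reads, had 57.1 and 79.8 normalized CPM in the FLAG IP and 79.9 and 94.1 in the FLAG Input, and 85.7 and 99.9 in the Ctrl IP and 109 and 113 in the Ctrl Input. Each IP lay below its Input, though FLAG IP replicate 2 and FLAG Input replicate 1 nearly met. The log2 ratios were -0.35 and -0.26, neither called, and the first turned to 0.18 with library totals.

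In the ring, Exosc8 had 16.5 and 32.7 normalized CPM in the FLAG IP against 36.0 and 33.4 in the FLAG Input, barely apart in replicate 2. Its log2 ratio of -0.50 (adjusted p = 0.26 by edgeR) came mostly from FLAG IP replicate 1, being -0.12 without it. Exosc5 was split even more, with 7.04 and 1.64 normalized CPM in the FLAG IP against 1.32 and 2.60 in the FLAG Input. Its log2 ratio of 1.15 (standard error 0.83, adjusted p = 0.27 by edgeR) turned to -0.30 without FLAG IP replicate 1. Exosc9 (-0.29) and Exosc7 (-0.06) had overlapping groups and Exosc4 (0.46) did not, and none of these 3 was called. The value of Exosc4 was 0.05 without FLAG Input replicate 1 and 0.99 without FLAG Input replicate 2. With library totals the values of Exosc9 and Exosc7 turned to 0.22 and 0.49.

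In the control pull-down edgeR called 0 of the 10 subunits, where 2.13% of all features were called, with 1 (Exosc2) at an unadjusted p under 0.05, as for 17.0% of all features, and 0 by DESeq2 and by limma. The log2 ratios lay between -0.26 and 0.89 with a median of -0.14, beside 0.12 over all features, and the groups did not overlap for 4 genes, as for 60.5% of all features. For the difference between the FLAG and the control ratio, edgeR called 0 of the 10 and 0.0% of all features, with 1 (Exosc3) of the 10 and 5.25% of all features at an unadjusted p under 0.05, and DESeq2 and limma called 0 of the 10. The 95% intervals of these differences reached 0.89 to 2.53 to either side of their values, so that smaller log2 differences could not be told from 0 with 2 libraries per group.

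Among the other genes of the decay routes, edgeR called 2 of 13 nuclear cofactors higher in the FLAG IP over the FLAG Input (C1d, 2.38, and Nrde2, 1.21), 1 of 4 Ski complex genes higher (Wdr61, 2.32), 0 of 5 other exoribonucleases, and 1 of 15 LSM1 route genes higher (Edc3, 4.38) and 1 lower (Lsm7, -1.14). C1d, a nuclear cofactor that binds EXOSC10, had 8.46 and 4.58 normalized CPM in the FLAG IP and 1.19 and 1.30 in the FLAG Input. Edc3, an enhancer of decapping, had 18.5 and 2.46 in the FLAG IP and 0.51 and 0.488 in the FLAG Input. Wdr61 had 20.6 and 4.67 in the FLAG IP and 2.89 and 2.16 in the FLAG Input. For both genes the higher FLAG IP value came from replicate 1. In the control pull-down the log2 ratios were 1.06 for C1d, 0.55 for Nrde2, 0.11 for Wdr61, 0.96 for Edc3 and -0.53 for Lsm7, none called by edgeR. Apart from Lsm7 these genes were named after their values were seen, as were Lsm3, Lsm4, Lsm6, Zp2, Zp3, Gdf9, Npm2 and Prm2. Over all features the shares called higher and lower were 21.0% and 5.48%. For the difference between the FLAG and the control ratio, edgeR called 0 genes in each of the 4 lists.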

How the data were processed

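After read trimming, the authors ran Salmon on RefSeq transcripts of mm10 together with repeat consensus sequences. Per the file headers, each library holds an estimated count and a TPM value per transcript, and these deposited values were used as they stand. Labels and methods differ in the trimmer and in the RNA-seq kit, and the Salmon version is not given in the labels. Here, 37067 of 37366 transcripts were matched to a gene symbol of GRCm38.p6, and the estimated counts were summed by symbol and rounded. Of the nonzero values, 55.5% were not whole (tolerance 1e-06). edgeR 4.0.16 (R 4.3.3; filterByExpr, TMM, quasi-likelihood test, Benjamini-Hochberg, threshold 0.05) was fitted to the 4 RNA-seq and to the 8 RIP-seq libraries. Normalized CPM use TMM factors. Intervals use edgeR's total degrees of freedom, which add to the residual ones prior ones estimated across all features. TPM served for levels between genes.

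The alternatives were DESeq2 1.42.0, limma 3.58.1 on log2(TPM + 1), RLE factors, library totals, no filter, length-scaled TPM, a replicate block and leaving out each library, which made 12 for the RNA-seq and 15 for each RIP-seq comparison. A crossed replicate block, counted among the 12, was chosen after seeing the data. Samples were grouped by their labels. Replicates are called independent in the study's methods, and 2 against 2 libraries allow no exact test below 0.05. Reads carry no molecular identifiers. The named genes were the 10 subunits, Exosc6, Lsm1 and up to 4 called genes of each list, or else its 2 most abundant genes. Members and lists were chosen with earlier results of these data known. siRNA bases were read from the study's supplement and matched to RefSeq transcripts.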

Additional observations from a re-analysis of the deposited data

How the results depend on the processing

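Relative to 0 of 10 subunits called in Lsm1_KD, 1 was called by DESeq2, by edgeR with library totals and without the abundance filter, 2 by limma on log2(TPM + 1) and 3 with the crossed replicate block, and 0 to 1 without single libraries. In the FLAG IP over Input, 1 was called in the main analysis, 2 (Exosc2 and Dis3) with library totals and 0 to 6 without single libraries, the 6 without FLAG IP replicate 2, where the remaining library is assumed to vary like the other groups. In the control it was 0 to 1 and for the difference of ratios 0 to 2, the highest values also without FLAG IP replicate 2 (Exosc2; Exosc3 and Exosc8). Over all features, 1248 calls in Lsm1_KD became 1957 without the filter, and were 663 to 1258 without single libraries. The 5015 calls in the FLAG libraries became 7604 by DESeq2 and 2820 by limma, and 478 to 13390 without single libraries. The 404 in the control became 1349 by DESeq2, 132 with library totals, 1614 without the filter and 156 by limma, and 111 to 2900 without single libraries. The 0 for the difference of ratios became 2 by DESeq2 and 21 without the filter, and 0 to 6351 without single libraries. In Lsm1_KD, the calls over all features were 1751 by DESeq2, 1236 by edgeR with library totals and 1272 by limma. With limma the share of higher calls was 33.3% in Lsm1_KD, 17.3% in the FLAG and 60.3% in the control libraries. By edgeR it was 58.6%, 79.3% and 99.8%.

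Same-numbered libraries deviated with correlations of -0.17 (Lsm1_KD and Ctrl), 0.11 (FLAG) and 0.10 (control), and the numbers were not taken as pairs. Per the study's methods, part of a lysate was kept as Input and the rest went to the IP. An IP and an Input can therefore share a lysate. The labels do not say which libraries did, and these correlations do not settle it. With the replicate block 643 features were called in Lsm1_KD (2616 with the crossed block), 1454 in the control and 10 for the difference of ratios, and it changed no call of the 10 subunits.

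Directions turned under these settings, with values without single libraries given as ranges. In Lsm1_KD, Exosc3 turned (-0.14 by limma, -0.21 to 0.46). In the FLAG libraries, those that turned with library totals were Exosc1 (0.18), Exosc7 (0.49), Exosc9 (0.22) and Exosc10 (0.18), and without single libraries Exosc5 (-0.30 to 1.85), Exosc7 (-0.24 to 0.06) and Exosc9 (-0.68 to 0.22). In the control, Exosc3 was -0.02 by DESeq2 and with RLE factors and -0.51 by limma, Dis3 was -0.35 by limma, and Exosc1 (0.03), Exosc7 (0.01) and Exosc8 (0.09) turned with library totals. The ranges there were -0.35 to 0.05 (Exosc1), -0.04 to 0.10 (Exosc3), -1.0 to 0.26 (Exosc5), -0.44 to 0.10 (Exosc7), -0.19 to 0.03 (Exosc8) and -0.32 to 0.04 (Exosc9). For the difference of ratios, Exosc1, Exosc2, Exosc9 and Exosc10 turned with library totals (0.15, 0.51, 0.22 and 0.28) and by limma (0.33, 0.61, 0.51 and 0.51), Exosc8 by limma (0.11), and Exosc2 by DESeq2, with RLE factors and with the replicate block (0.02 each). The ranges were -0.34 to 0.35 (Exosc2), -0.04 to 2.07 (Exosc5), -0.22 to 0.32 (Exosc7), -0.53 to 0.37 (Exosc9) and -0.36 to 0.14 (Exosc10). None of the turned values was past the threshold. The causes were not tested. Exosc5 and Dis3 had few reads in the RNA-seq libraries, 1 to 9 for Exosc5 and 28 to 87 for Dis3.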
